A study of Mus musculus with 43 samples.

Results

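Asymmetric methylation of histone H4 arginine 3 (H4R3me2a) in wild-type (WT) testes was set against symmetric methylation of the same residue (H4R3me2s) in Prmt1-deleted testes at postnatal day 7 (P7), as CUT&Tag peak lists. CUT&Tag cuts chromatin with a transposase tethered to the antibody against a mark, and each list holds the peaks of 1 library. The members were 5 of the 43 samples of the series, 3 WT H4R3me2a lists and 2 Prmt1-dKO H4R3me2s lists, picked by mark, genotype and age. No peak height or overlap entered this choice. The WT mice were C57BL/6J. The Prmt1-dKO mice, on the same background, were Ddx4-CreERT2; Prmt1 lox/lox animals given tamoxifen on 3 days, in which a Ddx4 promoter drives the inducible Cre in germ cells and exons 4 and 5 of Prmt1 are floxed. For both, seminiferous tubules stripped of interstitial cells and strained to remove Sertoli cells gave the cell suspension that the labels call spermatogonia. The labels do not say whether lists of 1 group came from separate animals, so every spread and p-value below measures the spread between lists, which may be technical. H4R3me2a of the knockout was not analysed here, so mark and genotype changed together between the lists compared and cannot be told apart. The sources do not say whether the WT mice of these lists carried Cre or had tamoxifen, so these may differ too.

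Arginine methyltransferases first add 1 methyl group to arginine, and a further one either to the same nitrogen, which gives the asymmetric form, or to the other nitrogen, which gives the symmetric form. PRMT1 is the main writer of the asymmetric form, and H4R3me2a is generally found at active chromatin. PRMT5 is the main writer of the symmetric form, which is more often linked to repression. Since a given arginine carries either form, loss of the asymmetric writer leaves the residue open to other enzymes, and the comparison asks whether the symmetric form in the knockout lay at positions that held the asymmetric form in WT.

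On the assembled chromosomes the H4R3me2a lists held 16802, 18538 and 17190 peaks and the dKO H4R3me2s lists held 33749 and 28046. The WT H4R3me2s lists, used as the reference for the symmetric mark, held 19838 and 35939. These 2 WT lists stood apart from each other, since 49.0% of the peaks of replicate 1 and 29.0% of those of replicate 2 lay in promoters (within 3000 bp of a transcript start), against 32.0%, 31.6% and 34.02% for H4R3me2a and 25.9% and 25.02% for dKO H4R3me2s. Only 943 and 668 dKO peaks had a q of at most 0.01, against 1660, 1573 and 2242 H4R3me2a peaks. Read depth is not in the lists and is unknown here.

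The positions held by all 5 lists with the strongest peaks were mostly repeats. A set of 4 is shown because they were among the best-ranked of the overlap, 3 in promoters and 1 elsewhere, as 120 bp around the summits from RefSeq GRCm38.p6 (plus strand, with capitals marking CG dinucleotides). They lie at chr9:35305371-35305490, chr2:98666988-98667107 and chr6:29748276-29748395 in the promoters of Gm33838, Gm10800 and Gm13717, and at chr12:67059486-67059605 in an intron nearest the start of Gm47987. The chromosome 9, chromosome 2 and chromosome 12 stretches carry the mouse major satellite type of sequence, and the chromosome 6 stretch is a simple repeat.
Gm33838: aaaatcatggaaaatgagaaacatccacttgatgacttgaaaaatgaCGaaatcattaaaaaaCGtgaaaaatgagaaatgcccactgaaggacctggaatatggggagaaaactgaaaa
Gm10800: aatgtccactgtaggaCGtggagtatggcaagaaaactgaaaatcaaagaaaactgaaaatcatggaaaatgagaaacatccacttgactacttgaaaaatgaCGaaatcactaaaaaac
Gm13717: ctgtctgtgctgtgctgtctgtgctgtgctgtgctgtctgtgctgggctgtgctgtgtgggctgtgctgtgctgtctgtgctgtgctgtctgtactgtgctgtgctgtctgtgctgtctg
Gm47987: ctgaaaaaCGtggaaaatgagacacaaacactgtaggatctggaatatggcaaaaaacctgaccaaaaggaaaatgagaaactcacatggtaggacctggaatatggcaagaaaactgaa

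At the Gm33838 position the fold enrichment over local background was 20.9, 22.2 and 21.2 in the H4R3me2a lists and 25.2 and 25.1 in the dKO H4R3me2s lists, beside 27.1 and 26.2 in the WT H4R3me2s lists. The position nearest Gm47987 gave 17.5, 17.97 and 16.3 for H4R3me2a, 17.99 and 19.8 for dKO H4R3me2s and 17.99 and 19.8 for WT H4R3me2s. All 4 positions were also peaks in each of the other 12 WT P7 lists, which cover 4 arginine marks, H3K4me3 and H3K27ac, so a peak there cannot be assigned to 1 mark. No list of artefact-prone (blacklisted) regions was used here.

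A further 3 stretches were chosen after their values were seen, since the gene results below turn on them. The dKO H4R3me2s summits at Slc26a6 (chr9:108912244-108912363, centred 106 bp before the start of a short transcript at the 3′ end of the gene) and at Stra8 (chr6:34921353-34921472, 403 bp inside) lay within 3000 bp of starts that held H4R3me2a in WT and no WT H4R3me2s, and that at Sohlh2 (chr3:55182109-55182228, 141 bp inside) lay in a promoter with neither. The Stra8 stretch held 8 CG dinucleotides, that of Sohlh2 held 4 and that of Slc26a6 held 1.
Slc26a6: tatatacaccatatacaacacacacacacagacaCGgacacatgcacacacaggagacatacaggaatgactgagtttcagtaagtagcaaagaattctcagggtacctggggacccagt
Stra8: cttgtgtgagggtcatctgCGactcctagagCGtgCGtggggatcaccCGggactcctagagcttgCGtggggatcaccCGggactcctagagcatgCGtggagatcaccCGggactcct
Sohlh2: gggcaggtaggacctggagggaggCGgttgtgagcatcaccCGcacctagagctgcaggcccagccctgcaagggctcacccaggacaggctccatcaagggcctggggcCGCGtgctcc

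A minority of H4R3me2a peaks lay under a dKO H4R3me2s peak. A peak was counted as shared when its summit, the base of highest signal, fell inside a peak of the other list. For H4R3me2a replicate 1, 9.79% of summits lay inside dKO list 1 and 8.22% inside dKO list 2. The same shares were 9.28% and 7.50% for replicate 2, and 10.1% and 8.39% for replicate 3. The mean was 8.89% ± 0.45 (SD, n = 3 lists), while the dKO peaks cover 0.319% and 0.257% of the genome, a ratio of 30.9 ± 1.6 to the covered share. That ratio is a description, and any part in it of a preference of CUT&Tag for accessible chromatin was not tested. For scale, 13.2% of the summits of 1 H4R3me2a list lay inside the peaks of another H4R3me2a list. Where a summit was inside, its median distance to the dKO summit was 57 to 65 bp over the 6 list pairs.

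In promoters the shared portion was larger than elsewhere in each of the 6 list pairs. Inside promoters it was 10.7%, 10.4% and 10.995% for H4R3me2a replicates 1, 2 and 3, and outside promoters 8.20%, 7.44% and 8.38%. Relative to the space that dKO peaks cover in each compartment the order turned, at 21.01 ± 0.57 times the covered share in promoters and 32.3 ± 2.0 times elsewhere. Among non-promoter peaks the share was highest between genes (9.98% ± 0.70), then in introns (6.64% ± 0.44) and in exons (3.49% ± 0.19).

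The same measure was then taken for the other WT arginine marks, to ask whether dKO H4R3me2s lay at H4R3me2a more than at them. It lay at H3R8me2a peaks at a higher share, 11.004% and 11.2%, and at H3R2me2a (7.27% and 6.79%) and H4R3me1 (7.98% and 6.71%) at a lower one. H4R3me2a therefore fell between the other marks rather than above them. The difference between the 3 H4R3me2a lists and the 6 lists of other marks was 0.40 percentage points for all peaks (8.89 against 8.49, exact permutation test over lists, two-sided, p = 0.810). It was 0.44 points in promoters (10.7 ± 0.27 against 10.3 ± 1.78, exact permutation p = 0.643) and 0.46 points elsewhere (8.005 ± 0.50 against 7.54 ± 2.16, exact permutation p = 0.762). After adjustment over the 9 tests of this kind each of the 3 stood at 0.810. The design allows a smallest p of 0.0238. These p-values do not show that the marks are alike, and under the alternatives tried the difference ran from 0.0425 to 2.21 points. The test treats the 6 lists as exchangeable, although they are pairs of lists of 3 marks.

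**Figure D1:**
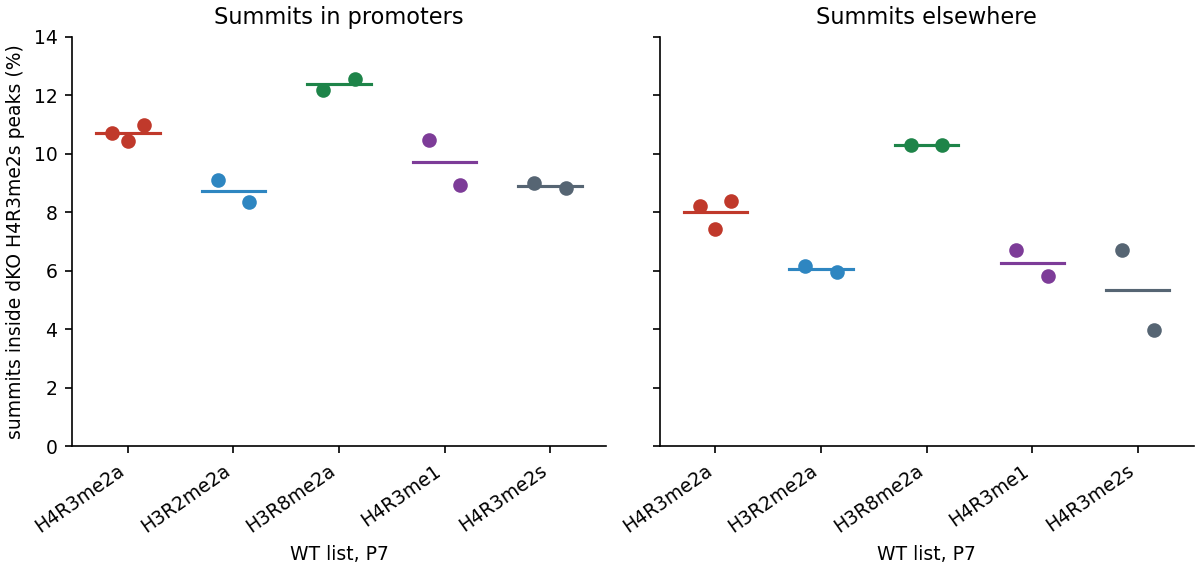
Share of the summits of each WT P7 list that lay inside dKO H4R3me2s peaks (percent, mean over the 2 dKO lists), in promoters and elsewhere. Points are lists and bars are means per mark. The 3 H4R3me2a lists lay between 10.4% and 10.995% in promoters and between 7.44% and 8.38% elsewhere, below both H3R8me2a lists and above both H3R2me2a lists.

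WT H4R3me2s gave the reference for change between genotypes. With the lists at full length, 10.4% ± 0.56 of H4R3me2a summits lay inside WT H4R3me2s peaks, 16.0% ± 0.16 of those in promoters and 7.68% ± 0.66 of those elsewhere. Since list length sets how much can overlap, the 4 H4R3me2s lists were trimmed by p to the shortest. On these, the dKO share minus the WT share at H4R3me2a promoter summits was −6.04, −5.84 and −5.28 percentage points in the 3 lists. All 3 H4R3me2a lists had a smaller promoter share under the symmetric peaks of the knockout than under those of WT, and this was not tested between genotypes. The same difference at the other marks was −5.92 ± 0.92 points (n = 6 lists), 0.20 points from the −5.72 ± 0.40 of H4R3me2a (exact permutation p = 0.738, adjusted 0.810). The dKO lists also held a smaller promoter portion than either WT H4R3me2s list, and the part of this in the result was not tested.

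Outside promoters the H4R3me2a share under single trimmed lists was 6.47% and 7.21% for WT H4R3me2s replicates 1 and 2 and 7.29% and 6.38% for dKO replicates 1 and 2 (means over the 3 H4R3me2a lists), so lists of 1 genotype stood further apart than the means of the genotypes. Averaged over the 2 lists of each genotype, the difference was −0.10, 0.19 and −0.11 percentage points for the 3 lists, a mean of −0.0044 ± 0.17, where the SD covers only the 3 H4R3me2a lists against the same averaged references. The other marks lay lower, at −0.27 ± 0.16, with both H3R2me2a lists and both H4R3me1 lists below every H4R3me2a list, and H3R8me2a at −0.021 and −0.24. The gap of 0.26 points gave an exact permutation p of 0.0714 (adjusted over 9 tests 0.643), and over the alternatives p ran from 0.0357 to 0.571. Over all peaks the dKO minus WT difference was −1.86 ± 0.14 points at H4R3me2a and −2.27 ± 0.46 at the other marks (exact permutation p = 0.214, adjusted 0.750).

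Read from the symmetric side, 5.31% and 5.55% of dKO H4R3me2s summits lay inside H4R3me2a peaks (mean over the 3 lists), against 8.82% and 5.74% of WT H4R3me2s summits. In promoters these were 8.02% and 8.44% in dKO and 9.18% and 8.89% in WT, and elsewhere 4.37% and 4.59% in dKO and 8.47% and 4.46% in WT. The dKO lists lay below both WT lists for all peaks and in promoters. Elsewhere dKO replicate 1 lay below both WT lists and replicate 2 between them. With 2 lists against 2 the exact permutation test cannot go below 0.33, which was its value for all peaks and for promoters, with 0.667 elsewhere. Among peaks with a q of at most 0.01 the order was the other way, with 56.9% and 66.5% of the dKO summits and 22.0% and 42.0% of the WT summits inside H4R3me2a peaks (exact permutation p = 0.33). That subset was 2.79% and 2.38% of the dKO lists and 15.3% and 4.43% of the WT lists. Its dKO summits lay inside peaks of the other arginine marks at 56.9% and 65.2% (mean of H3R2me2a, H3R8me2a and H4R3me1). Inside H3R8me2a alone the share was 60.9% and 69.4%, above that of H4R3me2a.

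Overlap was concentrated in the strongest peaks. When each H4R3me2a list was split into 10 bins of equal size by p, 38.9% ± 2.0 of the summits of the strongest bin lay inside dKO H4R3me2s peaks, 11.1% ± 0.57 of the next bin and 2.56% ± 0.32 of the weakest. The strongest bin of H3R8me2a gave 47.1% ± 1.2, and that of H4R3me2a in WT H4R3me2s gave 41.7% ± 2.2. The share declined from strong to weak peaks for each of the 4 arginine marks and in both genotypes of H4R3me2s.

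**Figure D2:**
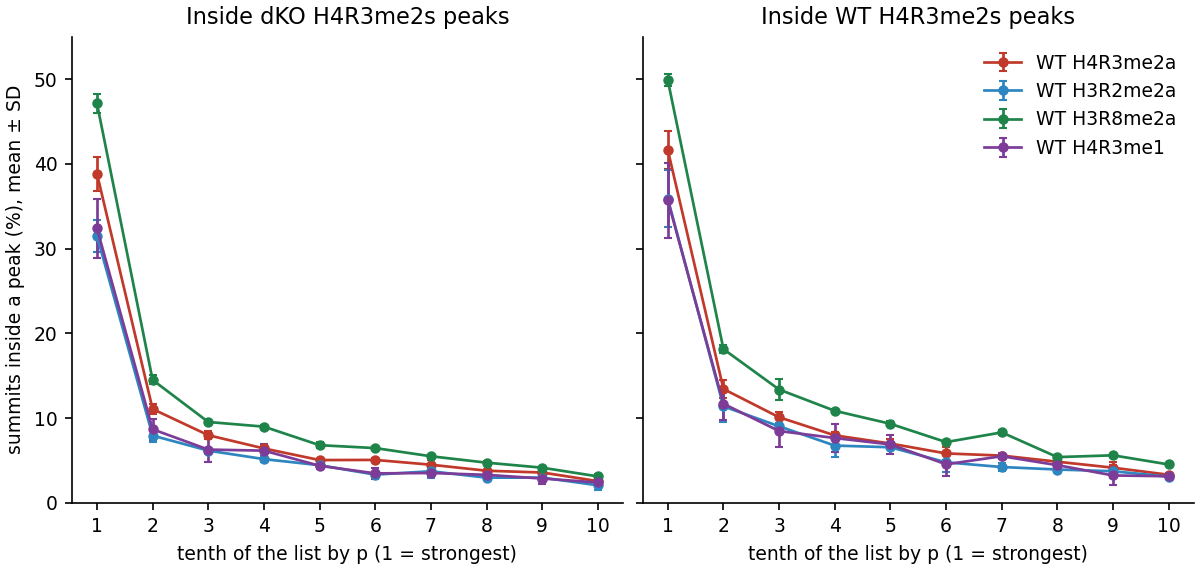
Share of WT summits (percent, mean ± SD over lists) inside H4R3me2s peaks of dKO (left) and WT (right) by bin of p within each list, where bin 1 is the strongest of 10. For H4R3me2a the share in dKO peaks fell from 38.9% in bin 1 to 2.56% in bin 10, and in WT peaks from 41.7% to 3.31%.

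Positions were next merged over the 5 lists into regions, to follow agreement between replicates. Of 38983 regions held by 1 H4R3me2a list, 1.09% were also held by both dKO lists. The share was 8.41% of the 3913 regions of 2 lists and 41.3% of the 1789 regions of 3 lists. A further 30.5% of the latter were held by 1 dKO list. Promoter and other regions were close at 3 lists, with 258 of 617 (41.8%) and 480 of 1172 (40.96%). Most H4R3me2a peaks were seen in 1 list only, and most dKO peaks too, since 1 dKO list shared 5.10% of its summits with the other.

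**Figure D3:**
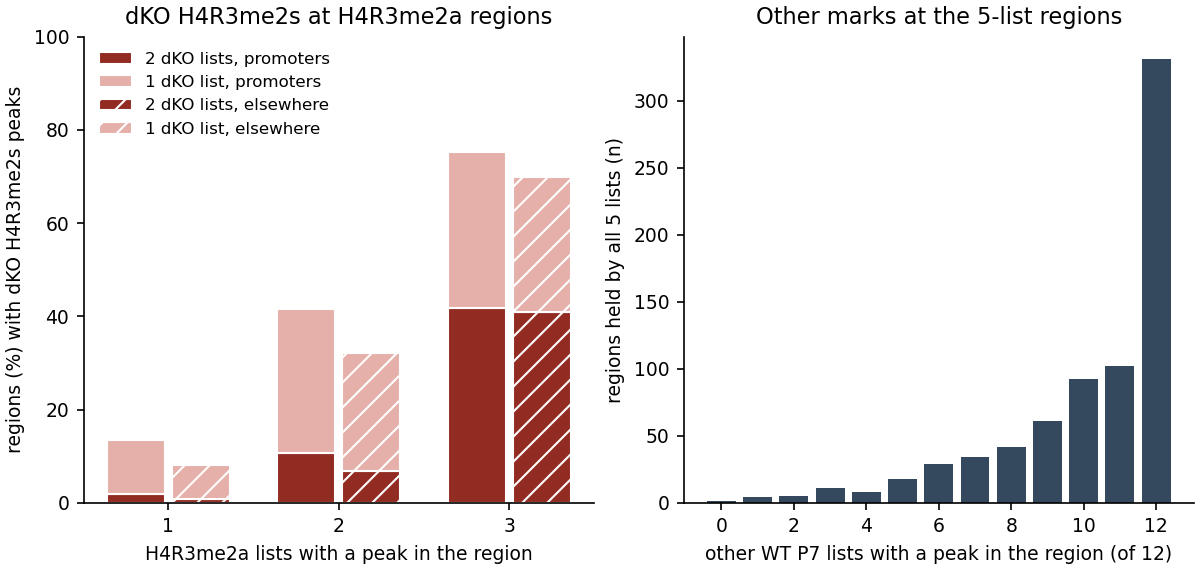
Left, the percentage of regions held by 1, 2 or 3 H4R3me2a lists that were also held by 1 or both dKO H4R3me2s lists, in promoters and elsewhere (hatched). Right, the number of other WT P7 lists, of 12, with a peak in each of the 738 regions that all 5 lists held, of which 331 were in all 12.

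The 738 regions of all 5 lists were mostly peaks of the other marks as well. Both WT H4R3me2s lists held 560 of them (75.9%), 1 list held 136, and 42 were in neither. All 6 lists of the other arginine marks held 526 (71.3%), and only 1 region was in none of the 6. Both H3K27ac lists held 590 (79.9%), both H3K4me3 lists held 439 (59.5%), and 331 (44.9%) were peaks in all 12 other WT P7 lists. By their centres 247 lay in promoters, 194 in introns, 290 between genes and 7 in exons. They were 716 bp wide in the median, and the 5 summits lay within 200 bp of each other in 380 (51.5%).

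Repeats were frequent in them. In 52.2% of the 738, at least 50% of the 200 bp around the summit was soft-masked as repeat in RefSeq (36.1% in promoters, 60.8% elsewhere), against 27.7%, 22.8% and 24.1% of all H4R3me2a summits and 29.4% of the summits of either dKO list. Among the 50 strongest regions 38 were soft-masked to at least 50%, and each of the 50 was in all 12 other lists. Copies of a repeat share reads, so the position of such a peak within its family is uncertain.

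At the promoter H4R3me2a summits inside both dKO lists the median number of CG dinucleotides in 200 bp was 7, 8 and 8 in the 3 lists, against 4 in each list for those inside none. The GC box GGGCGG, on either strand, was found in 25.1%, 26.4% and 28.9% of the former and 15.4%, 15.5% and 16.3% of the latter, beside 17.8%, 18.2% and 19.2% of all promoter summits of H4R3me2a. Outside promoters the order was the other way, with a median of 1 CG dinucleotide inside both dKO lists and 2 inside none in each list. The GC box was found there in 1.93%, 2.21% and 2.65% of the former and 2.77%, 3.27% and 2.71% of the latter. A match is a description of letters, not a bound site.

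H4R3me2a peaks under both dKO lists also differed from those under none in size and in what else lay there. They numbered 705, 707 and 702 (4.20%, 3.81% and 4.08% of each list), with median widths of 446, 444 and 462 bp against 246, 245 and 255 bp. Both WT H4R3me2s lists covered 65.7%, 66.6% and 66.8% of them, against 1.28%, 1.26% and 1.41% of those under no dKO list. Both H3K27ac lists, a mark of active promoters and enhancers, covered 67.8%, 68.2% and 70.1% against 4.53%, 4.02% and 5.11%. These figures are given without a test.

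A gain of the symmetric mark at former asymmetric sites would appear among dKO peaks with no WT H4R3me2s counterpart. Such peaks were 30729 of 33749 (91.1%) and 25661 of 28046 (91.5%). For scale, 5.10% of the summits of 1 dKO list lay inside the other dKO list and 5.74% inside a single WT H4R3me2s list. A missing WT counterpart alone can therefore not be read as a difference between genotypes. Of the peaks with no WT counterpart 2.37% and 2.48% lay inside H4R3me2a peaks. Inside peaks of the other arginine marks the shares were 2.55% and 2.50% (mean of H3R2me2a, H3R8me2a and H4R3me1). For those that the other dKO list held too, 618 and 654 peaks, the shares were 16.7% and 17.0% against 16.2% and 17.2%. In promoters they were 17.8% and 16.3% against 18.02% and 17.5%, and elsewhere 16.1% and 17.4% against 15.2% and 17.0%. Each H4R3me2a share lay between those of H3R2me2a and H3R8me2a in these sets. In promoters, when dKO peaks of a single list were kept too, H4R3me2a covered 3.51% and 3.62% of the peaks with no WT counterpart, less than H3R2me2a (4.22% and 3.93%), H3R8me2a (4.03% and 3.94%) and H4R3me1 (4.18% and 4.34%). Outside promoters H4R3me2a covered 2.03% and 2.14% of such peaks, between H3R2me2a (1.67% and 1.55%) and H4R3me1 (2.45% and 2.44%), with H3R8me2a at 2.11% and 2.12%. Peaks found in both WT H4R3me2s lists, 915 and 787, lay inside H4R3me2a at 65.9% and 69.7%, against 68.3% and 71.0% for the mean of the other marks.

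Regions with 1 mark only gave the complement. There were 506 regions of 3 H4R3me2a lists and no dKO list, of which 268 (53.0%) were in no WT H4R3me2s list and 68 (13.4%) in both. There were 813 regions of both dKO lists and no H4R3me2a list, of which 586 (72.1%) were in no WT H4R3me2s list and 514 (63.2%) in none of the 6 lists of other arginine marks. Only 6 of the 506 were in all 12 other lists.

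Where regions had to be held by a pair of lists of 1 mark, both dKO lists held 27.3%, 26.7% and 25.8% of the regions of the 3 H4R3me2a pairs, against 26.9% for H3R8me2a, 25.9% for WT H4R3me2s, 22.4% for H3R2me2a and 20.5% for H4R3me1. Away from every H3K4me3 and H3K27ac peak the shares were 8.45%, 8.82% and 8.09% for H4R3me2a, 9.95% for H3R8me2a, 10.5% for WT H4R3me2s, 4.63% for H4R3me1 and 2.57% for H3R2me2a. The H4R3me2a pairs share lists, and the other marks had 1 pair each, so no test was made.

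At genes, a promoter was taken as marked when at least 2 lists of a group held a summit within 3000 bp of a transcript start. Of 55413 annotated genes 4614 (8.33%) were marked by H4R3me2a in WT and 2853 (5.15%) by H4R3me2s in dKO. Both marks stood at 1142 genes (2.06%), which is 24.8% of the H4R3me2a genes. A gene can have several starts, and in 845 of the 1142 (74.0%) at least 2 H4R3me2a lists and both dKO lists met at a single one, a count added after seeing the data. The share with H4R3me2s in both dKO lists was higher with the number of H4R3me2a lists, from 2.13% of genes with none to 9.12%, 18.2% and 41.7% with 1, 2 and 3. WT H4R3me2s in both lists stood at 3.83%, 18.2%, 34.98% and 59.1%. Symmetric peaks in both dKO lists and in no WT list were at 0.892%, 2.03%, 2.71% and 1.78%, so the step from 2 to 3 lists was not seen there. Genes marked in both lists of another arginine mark had H4R3me2s in both dKO lists at 26.9% (H3R2me2a), 31.4% (H3R8me2a) and 28.2% (H4R3me1). These marks needed 2 of 2 lists and H4R3me2a only 2 of 3, so the shares do not rank H4R3me2a against them. Among promoter regions held by a pair of lists, both dKO lists held 26.5%, 25.5% and 24.9% for the 3 H4R3me2a pairs. The same share was 20.01% for H3R2me2a, 26.2% for H3R8me2a and 22.3% for H4R3me1.

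Among the 17017 genes with H3K4me3, the mark of active promoters, in both lists, 13.5% had H4R3me2s in both dKO lists and 28.0% of those with H4R3me2a did. Of the 4614 H4R3me2a genes, 113 (2.45%) had the symmetric mark in both dKO lists and in no WT list, while 399 (8.65%) had it in both WT lists and in no dKO list. Over all genes these shares were 1.21% and 3.23%. Among genes with H3K4me3 they were 2.03% and 8.41%, against 2.18% and 10.1% for those of them with H4R3me2a.

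**Figure D4:**
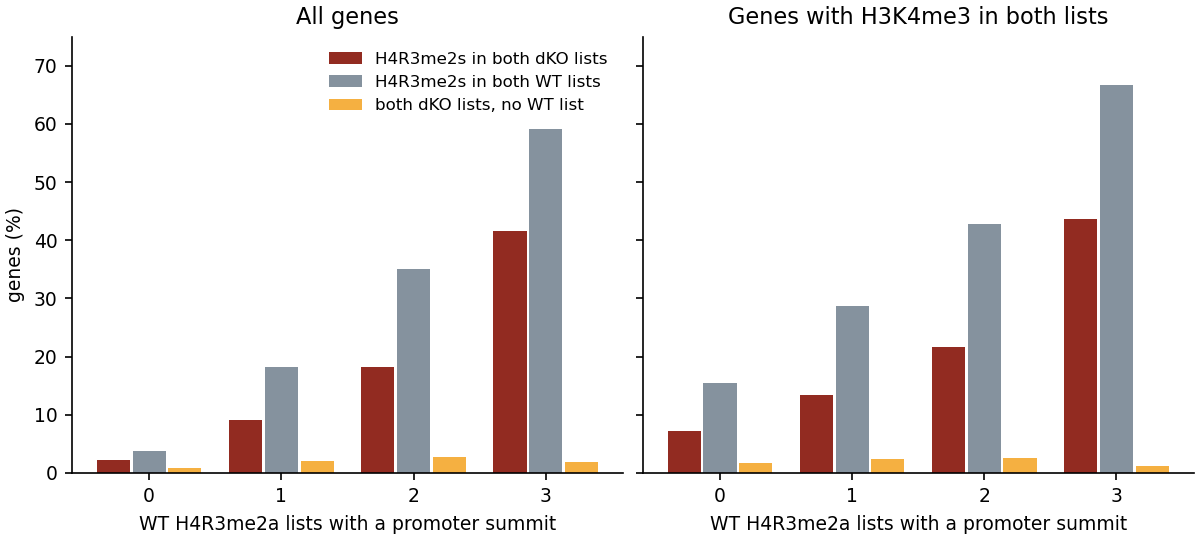
Percentage of genes with promoter H4R3me2s in both dKO lists, in both WT lists, or in both dKO lists and no WT list, by the number of WT H4R3me2a lists with a promoter summit, for all genes and for genes with H3K4me3. With 3 H4R3me2a lists the bars stood at 41.7%, 59.1% and 1.78% of all genes.

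For scale in the gene lists that follow, H4R3me2a marked 15.3% of protein-coding genes and 21.2% of genes with H3K4me3, dKO H4R3me2s 9.77% and 13.5%, and both marks 3.99% and 5.95%. With lists this small no count is read as a result about its list. The genes of spermatogonial stem cell self-renewal, which keep the undifferentiated pool, held no doubly marked promoter. Of 20, H4R3me2a marked 3 (Lhx1, Etv5 and Taf4b) and dKO H4R3me2s marked none, although 5 had it in 1 list. Etv5, a transcription factor of stem cell renewal, had H4R3me2a summits with a −log10 p of 4.46 and 3.13 in replicates 1 and 2, WT H4R3me2s at 2.33 and 7.33 and no dKO peak. Lhx1 had H4R3me2a at 3.16 and 3.19 and Taf4b at 3.99 and 3.24, each with 1 WT H4R3me2s list and no dKO list. None of the 9 genes that the study singled out (Bcl6b, Id4, Lhx1, Pou3f1, Etv5, Pou5f1, Zbtb16, Taf4b and Sohlh2) carried both marks. Sohlh2, a transcription factor of differentiating spermatogonia, was the only one with both dKO lists (3.73 and 5.53), and it had no H4R3me2a and no WT H4R3me2s list.

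Stra8, which retinoic acid induces at the entry into differentiation and meiosis, was the 1 doubly marked gene of the 14 differentiation genes and of the 24 meiotic genes found. Its promoter had H4R3me2a at a −log10 p of 4.03 and 5.07 in replicates 2 and 3, dKO H4R3me2s at 5.22 and 3.22 and no WT H4R3me2s, at a promoter with H3K4me3 in both lists. The summits were spread out, at 112 bp inside a start for H4R3me2a replicate 2, 2499 bp before the first start for replicate 3, and 403 and 1150 bp inside for dKO. In the PRMT family and its partners 2 of 13 were doubly marked. Carm1, which writes asymmetric methylation on H3, had H4R3me2a at 4.46, 6.39 and 4.14, dKO H4R3me2s at 7.55 and 5.32, and WT H4R3me2s at 8.89 and 6.09. Prmt2, another family member, had H4R3me2a at 3.89 and 4.27 in replicates 1 and 3, dKO H4R3me2s at 4.26 and 4.45, and 1 WT list at 7.79. Prmt1 itself had H4R3me2a at 4.53 and 4.95, both WT H4R3me2s lists and no dKO list.

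Of 10 methylarginine readers only Tdrd3, whose Tudor domain binds asymmetric dimethylarginine, was doubly marked, at 4.74 and 4.60 for H4R3me2a and 3.28 and 4.41 for dKO H4R3me2s. It also had WT H4R3me2s at 4.58 in replicate 1. Of 25 splicing factors, all with H3K4me3, 10 had dKO H4R3me2s, 10 had WT H4R3me2s in both lists, 5 had H4R3me2a and 2 had both H4R3me2a and dKO H4R3me2s, Srsf2 and Hnrnpa1. Hnrnpa1, an RNA-binding splicing repressor, had H4R3me2a at 8.30, 4.96 and 4.37 and dKO H4R3me2s at 3.85 and 4.45, with both WT H4R3me2s lists. Srsf2 also had WT H4R3me2s in both lists (12.8 and 6.83). Of 25 cytosolic ribosomal proteins Rpl7 alone had both (5.54, 3.72 and 5.601 against 2.80 and 4.45), beside WT H4R3me2s at 3.62 and 5.18. Of the 13 replication-dependent histone H4 genes, which encode the modified protein, none had both H4R3me2a and dKO H4R3me2s.

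A set of 18 protein-coding genes had all 5 lists and no WT H4R3me2s list at the promoter. They were 1.93% of the 933 protein-coding genes with 3 H4R3me2a lists, and the same pattern of H4R3me2s, in both dKO lists and no WT list, stood at 1.91% of all 21938 protein-coding genes. The opposite pattern, both WT lists and no dKO list, was seen at 72 of the 933 (7.72%) and at 5.54% of all protein-coding genes. The best-ranked of the 18 by their weakest list were Slc26a6, Tmem89, Mga, Trio, Myo1h, Hes3, Ankrd33 and Wsb2. In 7 of the 18 (38.9%) the 5 lists met at 1 start, Slc26a6, Tmem89, Mga, Hes3 and Ankrd33 among them. Slc26a6, an anion exchanger, had a −log10 p of 4.74, 4.56 and 11.3 for H4R3me2a and 6.49 and 5.31 for dKO H4R3me2s. The gene model spans chr9:108853283-108913049 on the plus strand, and the 5 lists met at a start at position 108912410, far from its 5′ end. The 5.31 of dKO replicate 2 belongs to a peak at that 5′ end, and near the 3′ start the same list had a weaker summit of 3.43. Tmem89 starts downstream at position 108914619 and shares the peaks of the 3′ start. Mga, which dimerises with MAX and keeps germ cell genes off in stem cells, had 5.54, 3.83 and 6.09 against 3.33 and 3.43. Trio had 4.67, 5.69 and 4.20 against 4.49 and 5.22, but its summits lay at different starts, as did those of Myo1h and Wsb2. Slc26a6, Mga and Trio also had both H3R2me2a, both H3K4me3 and both H3K27ac lists. Hes3, a repressor of the Hes family, had neither H3K4me3 nor H3K27ac, with 5.42, 4.78 and 3.58 against 4.70 and 4.99. At all 8 the dKO peaks were weak beside the repeats shown above, with a −log10 p between 3.22 and 6.49.

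Expression was compared with RNA-seq of whole testes (3 WT and 3 dKO) and Smart-seq2 of sorted spermatogonia (2 and 2) at P7. The bulk libraries held 12396317 to 16598233 counts. Prmt1 fell in whole testes. There it was at 652, 604 and 638 TPM in WT and 410, 433 and 402 TPM in dKO, a log2 fold change of −0.49 ± 0.13 (SE, edgeR adjusted p = 0.0334). In sorted cells it was at 350 and 239 TPM in WT and 179 and 151 TPM in dKO, with no overlap between groups and a log2 fold change of −0.88 ± 0.26 (SE, edgeR adjusted p = 0.133). The labels call these controls WT, whereas the study's methods give control mice for sorting as heterozygotes that carry the Cre allele and 1 floxed copy of Prmt1, so the WT level there may be that of heterozygotes. These gene-level values do not separate the floxed exons. In whole testes fewer cells of a type and less RNA per cell cannot be told apart.

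In bulk RNA-seq edgeR called 5.32% of 16554 genes higher in dKO and 1.78% lower (adjusted p below 0.05 and at least 2-fold). Of the 885 tested genes with both promoter marks 18 (2.03%) were higher and 8 (0.904%) lower. Their median log2 fold change was −0.06, against 0.02 over all genes. Genes with H3K4me3 in both lists gave 2.33% and 1.43% overall and 1.76% and 0.938% with both marks. Of the 82 tested genes with both marks and no WT H4R3me2s 2 were higher and 1 lower, and the median was 0.016. Of the 973 with H4R3me2a and no dKO list 39 (4.01%) were higher and 16 (1.64%) lower. The shares called among doubly marked genes stood below those of all genes with H3K4me3 in both directions, which is a description with no test.

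**Figure D5:**
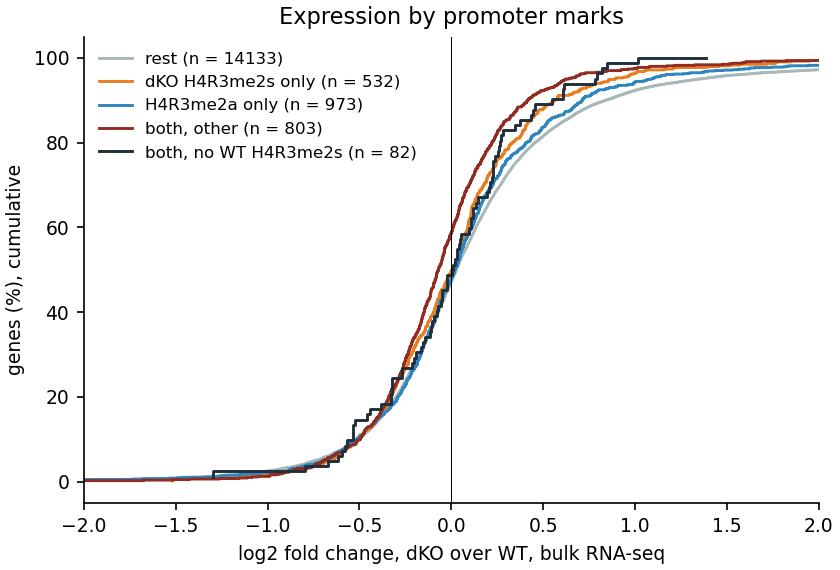
Cumulative share of genes (percent) by log2 fold change of dKO over WT in bulk RNA-seq, for 5 classes by promoter marks. The curve of the doubly marked genes with WT H4R3me2s (n = 803) lies left of the others at its upper end, and that of the 82 doubly marked genes without it crosses 0 near the 50% line.

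The called genes with both marks included Mki67, the proliferation marker, at 40.9 ± 4.6 TPM in WT and 17.6 ± 2.8 TPM in dKO (log2 fold change −1.05 ± 0.14, edgeR adjusted p = 0.00229). Col18a1, a basement membrane collagen, was at 190.2 ± 8.6 and 68.8 ± 12.7 TPM (−1.29 ± 0.15, edgeR adjusted p = 0.00161) and had no WT H4R3me2s. Ctsh, a lysosomal protease, was at 30.6 ± 1.6 and 64.1 ± 12.1 TPM (1.21 ± 0.12, edgeR adjusted p = 0.00112). Ank1, which links membrane proteins to spectrin, was at 1.09 ± 0.31 and 5.66 ± 1.72 TPM (1.60 ± 0.18, edgeR adjusted p = 0.00134). Adam33 and Best1, the 2 higher genes without WT H4R3me2s, had log2 fold changes of 1.02 ± 0.17 and 1.39 ± 0.29. DESeq2 put Adam33 at 0.996, just under the 2-fold limit. In Col18a1, Adam33 and Best1 no single start held both marks. Gm10800, whose promoter holds the satellite stretch shown above, was listed at 0 TPM in all WT libraries and at 19.0 ± 11.2 TPM in dKO. Duxf3, of a repeated gene family, was at 0.02 ± 0.035 and 6.15 ± 2.44 TPM. Reads of both can be split among copies, so these values are uncertain. This choice of names was made after the values were seen. Sorted cells did not repeat each of these changes. There Mki67 was at 13.1 and 26.5 TPM in WT and 14.2 and 16.9 TPM in dKO, and Col18a1 at 9.25 and 14.6 against 8.76 and 11.1 TPM, with log2 fold changes of −0.09 ± 0.39 and −0.03 ± 0.35. Gm10800 was at 1.18 and 1.29 TPM in WT and 0.45 and 0.33 TPM in dKO there, the reverse of the whole-testis order. Ctsh was listed at 0 in both sorted WT libraries and at 1.24 and 2.7 TPM in dKO.

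Of the doubly marked genes of the gene lists and the 8 best-ranked genes above none was called by edgeR or DESeq2 in bulk. In sorted cells, where edgeR called no gene of any kind, DESeq2 called Hnrnpa1 (log2 fold change 1.504, DESeq2 adjusted p = 1.42e-06) and Trio (3.30, DESeq2 adjusted p = 0.00184) higher. In bulk, Tmem89, Hes3 and Ankrd33 were too low to be tested. In sorted cells Hes3 and Ankrd33 were listed at 0 in both WT libraries, and at 0.44 and 0.56 TPM (Hes3) and 0.84 and 1.38 TPM (Ankrd33) in dKO, each with an edgeR adjusted p of 0.0774. In bulk Stra8 was at 95.1, 139.4 and 131.5 TPM in WT and 124.0, 124.7 and 83.3 TPM in dKO, and the groups overlapped (log2 fold change 0.04 ± 0.20, edgeR adjusted p = 0.913). Slc26a6, whose gene-level value covers all of its starts, was at 17.7, 24.5 and 24.0 against 14.7, 20.3 and 17.0 TPM (−0.32 ± 0.14, edgeR adjusted p = 0.133). Mga was at 49.3, 55.7 and 35.5 against 34.5, 13.4 and 24.5 TPM (−0.27 ± 0.17, edgeR adjusted p = 0.310). Carm1, Prmt2, Tdrd3, Srsf2 and Hnrnpa1 lay between −0.24 and −0.03 on the log2 scale in bulk. Bulk Rpl7 was at 1746 ± 40 and 2142 ± 107 TPM and Wsb2 at 176.7 ± 9.7 and 133.1 ± 19.7 TPM, with adjusted p of 0.0241 and 0.0463 (edgeR) but less than 2-fold. Sohlh2 was at 36.3, 38.9 and 32.4 against 32.0, 22.4 and 26.3 TPM (−0.26 ± 0.11, edgeR adjusted p = 0.135), and each WT value was above each dKO value. In sorted cells Hnrnpa1 was at 124.0 and 81.2 TPM in WT and 252.5 and 260.8 TPM in dKO, with no overlap (1.55 ± 0.26, edgeR adjusted p = 0.0774). Rpl7 was at 603 and 539 TPM in WT and 1018 and 957 TPM in dKO there, also with no overlap (1.05 ± 0.16, edgeR adjusted p = 0.0774). The median log2 fold change of the 25 cytosolic ribosomal protein genes was 0.70 in bulk and 0.76 in sorted cells.

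Summed TPM of Leydig, peritubular myoid and Sertoli cell markers differed between the whole-testis groups. It was 789 to 891 in WT and 285 to 323 in dKO for 7 Leydig cell genes (4 called lower). For 6 peritubular myoid genes it was 940 to 1049 and 339 to 632 (3 called lower). The 10 Sertoli cell genes were at 4633 to 5032 and 3096 to 3441 (1 called lower). The groups overlapped for 6 macrophage genes (52.1 to 64.7 in WT and 46.5 to 61.8 in dKO, 1 called lower). They also overlapped for 6 endothelial genes (75.75 to 84.6 and 65.1 to 92.2, 0 called lower). The 9 germ cell genes found were at 710 to 832 and 623 to 781, and none was called. The part of cell makeup in the bulk values was not tested. None of the marker promoters of these lists carried both marks.

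In sorted spermatogonia edgeR called 0.0% of 16443 genes in either direction, with 3911 at an unadjusted p under 0.05, and DESeq2 called 1234 higher and 662 lower. Without WT replicate 1 edgeR called 5290 higher and 2146 lower, and without WT replicate 2 it called 4089 and 2029, with the lone WT library assumed to vary like the dKO group. The 2 WT libraries differed widely from each other. Sohlh2 was at 41.8 and 1.73 TPM in WT and 53.9 and 61.0 in dKO, and Zbtb16 at 24.7 and 0.83 against 38.5 and 38.6. The median log2 fold change was −0.01 for the 870 tested genes with both marks and 0.15 over all genes. Stra8 was at 131.3 and 62.9 TPM in WT and 82.2 and 82.1 in dKO. Summed TPM of the germ cell markers was 2664 to 2714 in sorted WT libraries and 1774 to 1797 in dKO, that of Sertoli cell markers 226 to 241 and 318 to 436. Leydig cell markers were at 11.2 to 12.7 and 10.9 to 14.8 TPM and myoid markers at 4.61 to 12.05 and 4.54 to 5.09. The 6 macrophage genes were listed at 0 in both WT libraries and summed to 12.2 and 15.8 TPM in dKO, and the 6 endothelial genes were at 0 and at 1.04 and 1.14. The part of cell makeup in the sorted values was not tested.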

How the data were processed

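Members and gene lists were chosen with earlier results of these data known. The authors called CUT&Tag peaks per sample with MACS2 2.1.0 (p of 0.005 in the list names, q of 0.05 for H3K4me3) on mm10 after fastp 0.23.2. The aligner is not given in the sources used here. The deposited peak lists give fold enrichment (a ratio to local background) and −log10 p and q. The deposited gene tables hold expected counts and TPM, which the authors made with RSEM. HOMER, DESeq2 and deepTools are also named in the submitters' processing notes.

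Peaks on chromosomes other than 1 to 19, X and Y were left out, 184 to 198 per H4R3me2a list and 192 and 175 in dKO. The RefSeq GRCm38.p6 sequence and the gene models of GENCODE vM21 (55413 genes) were used. A peak was shared when its summit lay inside a peak of the other list. Shares were compared by exact permutation tests over lists, two-sided by doubling the smaller tail, with Benjamini-Hochberg adjustment over 9 tests. Expected counts were rounded and tested in edgeR 4.0.16 (filterByExpr, TMM, quasi-likelihood), with DESeq2 1.42.0 as the alternative. In data simulated for the bulk comparison (16554 genes), 49 of 100 genes changed 2-fold and 100 of 100 changed 4-fold were called. For Smart-seq2 (16443 genes) these were 4 and 49. Total counts were 12396317 to 16598233 (bulk) and 15610354 to 18547078 (Smart-seq2). Named genes were the 9 of the study, list members with both marks, and the 8 best-ranked protein-coding genes with all 5 lists and no WT H4R3me2s list. Others are said to be chosen afterwards. Alternatives changed the overlap rule, promoter window, q, list length, count filter, scaling and test, and left out each library. Python 3.11.15, pysam 0.24.0 and R 4.3.3 were used. Some of the best-ranked stretches are not reported here.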

Additional observations from a re-analysis of the deposited data

How the results depend on the processing

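Of 222 values under an alternative 193 were counted as the same. For a comparison this meant the same direction and the same side of the threshold. The 47 values of H4R3me2s peaks in H4R3me2a could not cross it, since 2 lists against 2 allow no p below 0.33. Of the counts, 7 of 9 for doubly marked genes, 2 of 20 for bulk calls and 6 of 16 for Smart-seq2 calls moved. All 62 comparisons of dKO H4R3me2s at H4R3me2a peaks with other arginine marks stayed the same. They ran from 0.0425 to 2.21 percentage points (exact permutation p of 0.286 to 1.0). The dKO minus WT difference in promoters, 0.20 points above the other marks, turned to −0.14 without positions in any H3K4me3 or H3K27ac list and to −0.25 when lists were also cut to equal length, 2 alternatives chosen after seeing the data, and ran from −0.0241 (without H3R8me2a replicate 1) to 0.46 with 1 list left out, being −0.0202 without H4R3me2a replicate 3. Elsewhere it passed an unadjusted exact permutation p of 0.0476 at 0.35 (any overlap), 0.46 (summits within 500 bp) and 0.28 (equal length), and ran from 0.16 to 0.39 with 1 list left out (0.31 and p = 0.0357 without H3R8me2a replicate 1). For H4R3me2s peaks inside H4R3me2a, dKO minus WT, peaks with a q of at most 0.01 gave 29.9 points (all), 27.1 (promoters) and 21.2 (elsewhere). Without H3K4me3 and H3K27ac positions the promoter value was 0.0321, and 0.21 at equal length. With 1 list left out the value elsewhere ran from −3.99 (without WT H4R3me2s replicate 2) to 0.0187 (without replicate 1). The cause of these turns was not tested.

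The 1142 doubly marked genes became 537 (all lists), 6887 (any list), 665 (1000 bp promoters), 102 (q of at most 0.01), 631 (equal length), 845 (lists counted at a single start, chosen after seeing the data), and 714 to 766 without 1 H4R3me2a list, when both of the remaining lists had to hold the promoter. Bulk calls higher in dKO were 1367 with DESeq2 and 1777 with no count filter. Smart-seq2 calls, 0 by edgeR, were 1234 higher and 662 lower with DESeq2, and 0 to 5290 higher and 0 to 2146 lower with 1 library left out (5290 and 2146 without WT replicate 1, 4089 and 2029 without WT replicate 2, where the lone WT library is assumed to vary like the dKO group). A replicate block gave 691 higher and 259 lower in bulk and 0 in Smart-seq2. Deviations of same-numbered bulk libraries gave r of 0.0825, −0.22 and −0.12, and those of different-numbered ones −0.23 to 0.26. The labels give no pairing, and these values cannot settle whether the numbers pair samples. Peak lists carry no read depth, which limits what an absent peak can show.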
